A study of Capra hircus with 6 samples.

Results

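The transcripts described here are those of protein processing in the endoplasmic reticulum (ER) in dermal papilla cells of the goat hair follicle, with and without all-trans retinoic acid (ATRA), a form of vitamin A that acts through nuclear receptors. The genes are those annotated in the deposited table with the KEGG pathway of that name, less 12 genes of apoptosis, stress transcription, and the cytosolic heat shock response that the selection set aside. Of the 15944 genes listed, 164 carry the annotation and 152 remained, of which 146 had enough reads to be tested among 12588 tested genes. The table lists 10 of the 152 under a LOC number. The 6 members that were not tested held few reads. DERL3 had 1 count in all 6 libraries together, while MAPK10, LMAN1L, TRAM1L1, and the copies LOC102188771 (deposited as RBX1) and LOC106502246 (deposited as BAG1) had at most 11 counts in any library.

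The cells were primary cultures of secondary hair follicle dermal papilla cells (SHF-DPCs) from skin of wild type Albas cashmere goats aged 3 years, used at passages 4 to 7. Both groups were cultured for 24 h, the control group in medium alone and the ATRA-treated group with ATRA at 100 µM. Per the study's methods the sequenced cells came from 3 animals, and the sources used here do not state whether an ATRA culture and a control culture share an animal. RNA-seq of poly(A) RNA gave 3 control libraries and 3 ATRA libraries, and no division of them into batches is listed.

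The ER is where secreted and membrane proteins enter the secretory pathway, receive their N-glycans, fold with the help of chaperones and disulfide isomerases, and leave in vesicles coated with COPII. Proteins that do not fold are drawn back to the cytosol, tagged with ubiquitin, and degraded by the proteasome, a route called ER-associated degradation (ERAD). When unfolded proteins build up, the membrane sensors IRE1, PERK, and ATF6 start the unfolded protein response, which slows translation and raises the transcription of chaperone and ERAD genes. Dermal papilla cells are fibroblast-like cells that secrete collagens, proteoglycans, and growth factors, all of which pass through the ER.

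Each library held between 35532339 and 38012771 counts. Levels are given as normalized CPM, the counts of a gene over the library's total (in CPM) after TMM, a scaling that sets libraries to each other by the bulk of their genes. The scaling matters here, since the TMM factors ran from 0.842 to 0.851 for control libraries and from 1.17 to 1.20 for ATRA libraries. Dividing by library size only would raise every log2 fold change of ATRA over control (log2FC) by about 0.48, moving the median over all tested genes from 0.04 to 0.52. Any log2FC between -0.48 and 0 therefore turns positive on that scale, and this is stated beside the genes concerned. A gene was called higher or lower at an adjusted p under 0.05 by edgeR's quasi-likelihood test. Its p-values measure the spread between these 3 libraries of each group. Within the groups, ATRA replicate 2 stood farther from its fellows than any other library (chi-square per degree of freedom 18.4 and 17.3, against 5.01 to 8.94 for the other pairs). Without it, 69 members were called higher and 58 lower.

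The label of the cells was compared with marker genes. All 10 markers of cultured mesenchymal cells were present and all were lower with ATRA, although PDGFRB turned to 0.04 with library size only. Their summed level was 86780 to 88020 normalized CPM in the control libraries and 5068 to 5472 in the ATRA libraries. Of 11 dermal papilla markers, 6 could be tested and all 6 were lower under TMM. With library size only LEF1 had a log2FC of -0.06 and missed the threshold (adjusted p = 0.586). ACTA2 (the smooth muscle actin) had 7098, 6206, and 6442 normalized CPM in the control libraries and 9.19, 7.53, and 8.38 in the ATRA libraries. PROM1 (CD133), ALPL, and CORIN, which also define dermal papilla, were at 0 or 1 count in every library. SOX2 and NOG, also too scarce to be tested, had more counts with ATRA. SOX2 had 5, 0, and 2 counts in the control libraries and 10, 16, and 9 in the ATRA libraries, and NOG had 8, 2, and 8 against 13, 11, and 9. Of the 6 keratinocyte markers, KRT5 and KRT14 had at most 20 counts in any library while KRT10, the marker that could be tested, was higher (79, 138, and 87 counts in the control libraries and 252, 231, and 240 with ATRA, log2FC 0.82). KRT5 had 2, 7, and 3 counts in the control libraries and 0 in each ATRA library, and KRT14 had 20, 14, and 10 against 3, 0, and 0. TP63, EPCAM, and CDH1 had at most 5 counts in any library. Of the 3 melanocyte markers, TYRP1 had at most 1 count, MITF was higher (log2FC 1.33), and PMEL was lower (log2FC -0.90). The summed level of MITF and PMEL was 16.1 to 17.6 normalized CPM in the control libraries and 32.2 to 39.0 with ATRA. Of the 5 endothelial markers, CDH5 had at most 1 count, TEK was higher (log2FC 0.87), and VWF was not called (log2FC 0.06, adjusted p = 0.9085). KDR went the other way, with 5, 6, and 10 counts in the control libraries and 2, 1, and 0 with ATRA. The summed level of the 3 tested markers moved from 0.592 to 1.05 up to 6.19 to 9.11 normalized CPM, mostly through PECAM1. PECAM1 had 0 counts in the control libraries and 242, 340, and 206 in the ATRA libraries. The macrophage genes CD14 (log2FC 2.18) and CD68 (log2FC 1.41) rose, and CSF1R had at most 7 counts in any library. The summed level of CD14 and CD68, the leukocyte markers tested, moved from 9.15 to 12.8 normalized CPM up to 41.1 to 44.0. The part of these shifts in the results below was not tested. In bulk RNA, fewer cells of a type and less RNA per cell cannot be told apart.

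ER protein processing genes moved in both directions with ATRA. Of the 146 tested, 71 were higher (48.6%, against 40.9% of all tested genes) and 55 lower (37.7%, against 38.7%). With library size only the split was 104 higher (71.2%, against 62.9% of all tested genes) and 23 lower (15.8%, against 22.7%). The number whose ATRA libraries all lay on one side of all control libraries was 126 (86.3%, against 80.1% of all tested genes). Of the 126 called members, 58 had a log2FC of at most 0.5 in size. By the study's threshold of |log2FC| above 1 with an unadjusted p under 0.05, 16 were higher (11%, against 13.7% of all tested genes) and 11 lower (7.53%, against 17.3%). The median log2FC was 0.14 over the members and 0.04 over all tested genes, so as a set the members lay close to the background. Under all 4 scalings tried, 69 members (47.3%) were called higher each time and 23 (15.8%) lower each time, beside 40.0% and 22.7% of all tested genes.

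The counts in each direction varied with the step of the pathway. The members of the oligosaccharyltransferase, of the calnexin cycle, and of the disulfide isomerases were mostly lower under TMM but not with library size only, and those of the ERAD membrane machinery, of p97 delivery, and of the COPII coat were mostly higher under both. The members were placed in 10 such roles, and the counts of each are given with its genes below. Their background, as for the gene lists and GO compartments further below, is 40.9% higher and 38.7% lower of all tested genes under TMM. With library size only it is 62.9% and 22.7%. No test of one role against another was made.

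**Figure D1:**
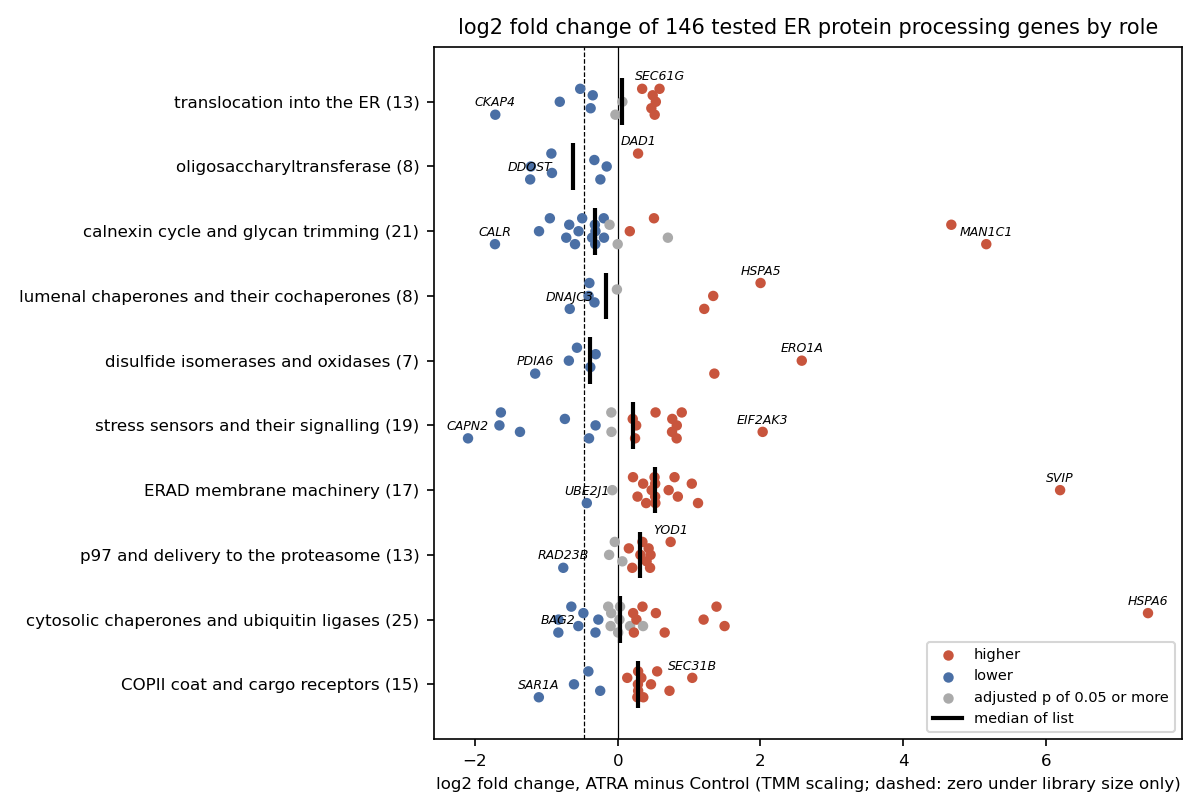
The log2 fold change (ATRA minus control, TMM scaling) of each of the 146 tested members is plotted as a point in the row of its role, with the number of tested members in brackets. Red points were called higher, blue points lower, and grey points had an adjusted p of 0.05 or more, and the black bar is the median of the role. The median of the oligosaccharyltransferase, with RPN2 and its copy LOC108637357 both counted, lies at -0.62. That of the ERAD membrane machinery lies at 0.52, and the dashed line is where zero would lie with library size only.

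Measured as a share of all counts, which amounts to scaling by library size only, the 152 members rose from 2.41% ± 0.0218 to 3.65% ± 0.0187 (SD with n = 3 each). The groups did not overlap (difference 1.24 percentage points). An exact two-sided permutation test gave p = 0.1, which is as low as 3 libraries against 3 can reach. Much of this was HSPA5 alone, whose share went from 0.183% ± 0.003103 to 1.02% ± 0.0346. The other 151 members went from 2.23% ± 0.0193 to 2.63% ± 0.0313 (exact permutation test, p = 0.1). The calnexin cycle was the role whose share was lower with ATRA without overlap, at 0.481% ± 0.00552 to 0.397% ± 0.00499. The share of the oligosaccharyltransferase was 0.164% ± 0.00201 without ATRA and 0.161% ± 0.00456 with it (SD, n = 3 each), with the libraries overlapping (exact permutation test, p = 0.6). A share also moves with the rest of the transcriptome. Under TMM the summed level of the 146 tested members went from 28480 ± 337 to 30950 ± 532 normalized CPM (SD, n = 3 each). HSPA5 went from 2159 ± 46.6 to 8645 ± 406 on that scale, so the other tested members together were lower under TMM.

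**Figure D2:**
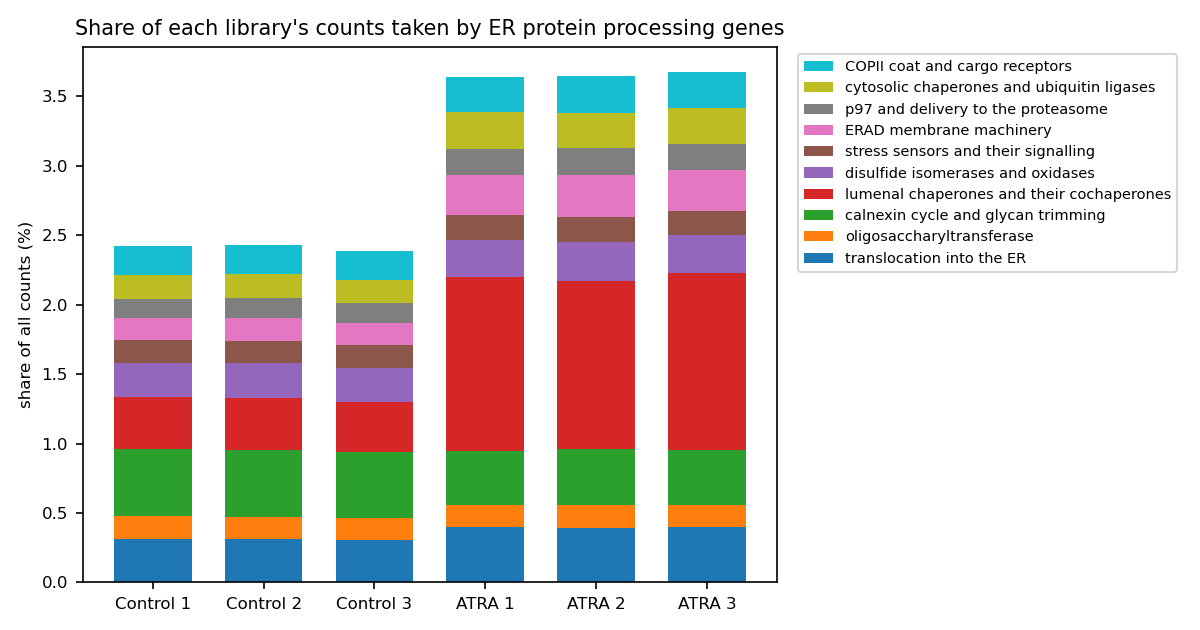
Each bar is a library, and its height is the percent of all its counts taken by the 152 members, stacked by role. The control libraries reach 2.41% on average and the ATRA libraries 3.65%, and the lumenal chaperones widen from 0.367% to 1.25%.

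Among the chaperones of the ER lumen, HSPA5, HYOU1, and DNAJC1 rose. Of 8 tested genes, 3 were higher and 4 lower (median log2FC -0.17), and 5 and 1 with library size only (median 0.31). HSPA5 encodes BiP, the ER member of the HSP70 family, which binds nascent chains and keeps the stress sensors inactive. It had 2209, 2152, and 2117 normalized CPM in the control libraries and 8738, 8200.0, and 8995 in the ATRA libraries. Every ATRA library was far above every control library, a 4.003-fold rise (log2FC 2.001, standard error 0.0616, adjusted p = 9.12e-16). HYOU1, a large HSP70-related protein that exchanges the nucleotide of BiP, had 188, 175, and 187 in the control libraries and 410.2, 421, and 445 with ATRA, again without overlap (log2FC 1.21, standard error 0.0576, adjusted p = 6.51e-13). DNAJC1, a membrane-bound J protein that partners BiP, rose from 10.7 ± 0.6203 to 27.1 ± 0.701 normalized CPM (SD with n = 3 each, log2FC 1.34, standard error 0.0845, adjusted p = 4.89e-11).

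The remaining lumenal chaperones did not follow HSPA5. HSP90B1, the ER member of the HSP90 family, had 1534, 1507, and 1454 normalized CPM in the control libraries and 1096, 1137, and 1154 with ATRA. All 3 ATRA libraries were lower under TMM (log2FC -0.41, adjusted p = 2.57e-06), but with library size only the log2FC was 0.07. DNAJC3, the J protein known as p58IPK, fell by 0.67 on the log2 scale and kept that direction under every scaling (-0.19 with library size only). DNAJC10, a J protein with disulfide reductase activity (log2FC -0.33), and SIL1, another nucleotide exchange factor of BiP (log2FC -0.40), were called lower under TMM but turned to 0.15 and 0.08 with library size only. DNAJB11, a soluble J protein of the lumen, had a log2FC of -0.01 (adjusted p = 0.876), with overlapping libraries and a sign that depended on the scaling.

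A ratio of counts within a library does not depend on scaling, and such ratios were taken for 8 partner pairs chosen after the values had been seen. HSPA5 had 1.43 to 1.46 times the counts of HSP90B1 in the control libraries and 7.21 to 7.97 times in the ATRA libraries. Its ratio to CALR went from 1.18 to 1.22 to 15.6 to 15.9, 13.2-fold higher. HYOU1 rose less than HSPA5, so that its ratio to HSPA5 was 1.73-fold lower with ATRA. For all 8 pairs the groups did not overlap, which in an exact permutation test of 3 libraries against 3 gives p = 0.1, the smallest possible. As the pairs were chosen with these values known, nothing is read from that count or p-value.

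**Figure D3:**
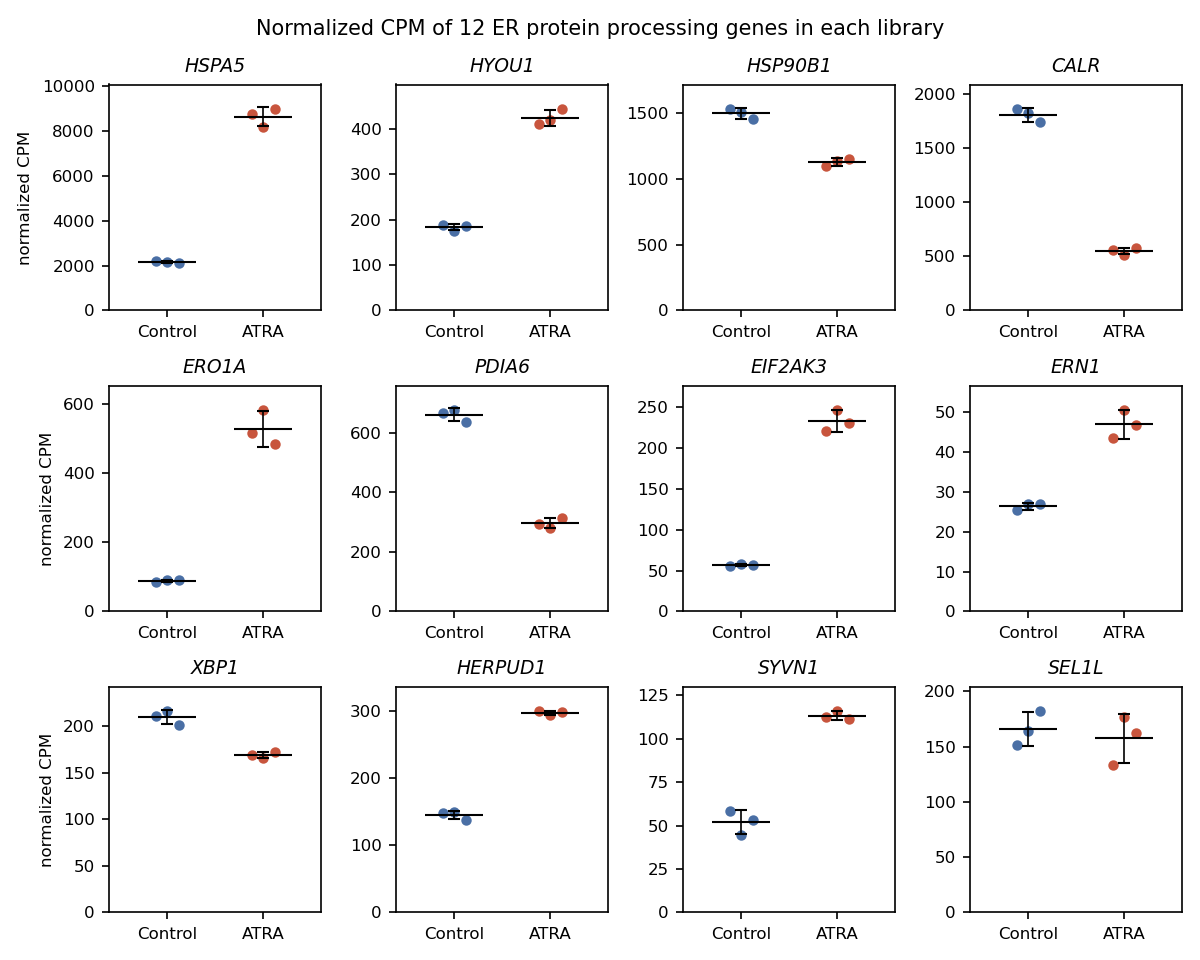
Normalized CPM of 12 members in each library, with control libraries in blue, ATRA libraries in red, the group mean as a bar, and the SD as an error bar (n = 3 each), each panel on its own linear axis from 0. HSPA5, HYOU1, ERO1A, EIF2AK3, ERN1, HERPUD1, and SYVN1 stand higher with ATRA in all 3 libraries, CALR and PDIA6 stand lower, and SEL1L overlaps, while HSP90B1 and XBP1 are lower under TMM but not with library size only.

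In disulfide formation the oxidases were higher and the isomerases lower under TMM. Of 7 tested genes, 2 were higher and 5 lower (median log2FC -0.38), and 3 and 2 with library size only. ERO1A, which reoxidizes protein disulfide isomerase, had 84.9, 90.1, and 90.1 normalized CPM in the control libraries and 516, 584, and 484 with ATRA. This was a 5.97-fold rise with no overlap (log2FC 2.58, standard error 0.0706, adjusted p = 1.54e-16). ERO1B, its paralogue, had 11.2, 13.01, and 12.7 in the control libraries and 31.6, 33.1, and 29.4 with ATRA (log2FC 1.35, standard error 0.0874, adjusted p = 6.75e-11). Both oxidases were therefore higher in every ATRA library. P4HB, the archetypal isomerase and also a subunit of the collagen prolyl hydroxylase, had 1331, 1316, and 1287 in the control libraries and 801, 793, and 854 with ATRA (log2FC -0.68, standard error 0.0569, adjusted p = 2.84e-09). PDIA6, an isomerase that also acts on the stress sensors, had 667, 678, and 637 and 295, 280.0, and 315 (log2FC -1.16, standard error 0.0603, adjusted p = 2.72e-12). These isomerases were lower in all 3 ATRA libraries under each scaling. PDIA4 (log2FC -0.57) was called lower under TMM but had -0.09 with library size only, where it missed the threshold (adjusted p = 0.108). TXNDC5 (log2FC -0.38) and ERP29 (log2FC -0.31), the latter chosen after its values were seen, were lower under TMM and turned to 0.09 and 0.17 with library size only. The count ratio of ERO1A to P4HB went from 0.0638 to 0.07002 to 0.566 to 0.737, 9.58-fold higher.

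The lectin cycle that folds and inspects glycoproteins was mostly lower under TMM. Of 21 tested genes of the calnexin cycle and of glycan trimming, 4 were higher and 14 lower (median log2FC -0.31), whereas with library size only 10 were higher and 5 lower. CALR, the soluble lectin chaperone calreticulin, had 1863, 1823, and 1736 normalized CPM in the control libraries and 555, 516, and 576 with ATRA. All ATRA libraries were far below the control libraries, 3.29-fold lower (log2FC -1.72, standard error 0.0619, adjusted p = 9.51e-15). CANX, the membrane-bound lectin calnexin, had 512, 543, and 521 and 437, 487, and 455, a small fall under TMM (log2FC -0.19, adjusted p = 0.00624) that turned to 0.29 with library size only and missed the threshold with upper-quartile scaling (-0.12, adjusted p = 0.0773). The count ratio of CANX to CALR was 2.88-fold higher with ATRA. PDIA3, the isomerase that works with both lectins, had 1220.0, 1188, and 1176 and 752, 718, and 768 and fell in every ATRA library (log2FC -0.68, standard error 0.0563, adjusted p = 2.68e-09).

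UGGT1, the sensor that re-glucosylates misfolded glycoproteins, had 101, 106, and 122 normalized CPM in the control libraries and 40.1, 62.8, and 49.9 with ATRA (log2FC -1.10, standard error 0.137, adjusted p = 1.81e-05). Its paralogue UGGT2 had 92.8, 100.3, and 93.02 and 92.1, 97.8, and 96.2, with overlapping libraries (log2FC -0.0003, adjusted p = 0.997, and 0.48 with library size only). The count ratio of UGGT1 to UGGT2 was 1.05 to 1.31 in the control libraries and 0.435 to 0.642 in the ATRA libraries. The EDEM proteins, mannosidase-like factors that mark glycoproteins for ERAD, were called lower under TMM with log2FC of -0.31 for EDEM1, -0.36 for EDEM2, and -0.20 for EDEM3, but all of these turned positive with library size only (0.16, 0.12, and 0.28). The libraries of EDEM3 overlapped, and its call (adjusted p = 0.0318) was lost with upper-quartile scaling (0.177), by the t.test function (0.167), and without ATRA replicate 1 (0.123), ATRA replicate 3 (0.0986), Control replicate 2 (0.155), or Control replicate 3 (0.0579).

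The genes of this role that rose most were scarce in control cells. MAN1C1, a Golgi mannosidase, had 5, 6, and 4 counts in the control libraries and 263, 235, and 241 in the ATRA libraries (log2FC 5.16, standard error 0.253, adjusted p = 1.07e-12). FBXO2, the F-box protein that recognizes N-glycans on retrotranslocated proteins, had 7, 3, and 6 and 196, 185, and 180 counts (log2FC 4.67, standard error 0.277, adjusted p = 1.91e-11). With so few control counts the size of both changes is imprecise, although no library overlapped. Both genes had enough reads to be tested only through their ATRA libraries, so their p-values are no separate evidence of direction. The related mannosidase MAN1A1, chosen after its values were seen, went the other way, from 292 ± 16.1 to 151 ± 23.6 normalized CPM (SD with n = 3 each, log2FC -0.95, standard error 0.0857, adjusted p = 3.35e-08).

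The oligosaccharyltransferase, the membrane complex that transfers N-glycans to nascent chains, had the lowest median of the 10 roles, a log2FC of -0.62. Of its 8 tested rows 1 was higher and 7 lower under TMM, and 4 were higher and 4 lower with library size only. These rows count RPN2 and its copy LOC108637357 separately, and the rank of the median depends on this. Without the copy the middle row would be STT3B (log2FC -0.33), above the median of the disulfide isomerases and oxidases (-0.38). DDOST, a structural subunit, had 357, 328, and 333 normalized CPM in the control libraries and 145, 143, and 147 with ATRA (log2FC -1.23, standard error 0.0554, adjusted p = 3.08e-13). RPN2 (ribophorin II) had 283, 278, and 282 and 112, 127, and 123 (log2FC -1.22, standard error 0.0583, adjusted p = 7.48e-13). Both subunits were lower in every ATRA library and under each scaling. A copy of RPN2 listed as LOC108637357 also fell (log2FC -0.93), and how reads were divided between the pair is not given in the sources used here. TUSC3, an oxidoreductase subunit, fell from 19.7 ± 1.26 to 10.4 ± 0.207 normalized CPM (SD with n = 3 each, log2FC -0.92).

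The catalytic subunits and RPN1 differed from DDOST. STT3A had 339.5, 325, and 324 and 285, 302, and 302 normalized CPM, a log2FC of -0.15 (adjusted p = 0.0154) that turned to 0.32 with library size only and lost its call with upper-quartile scaling (0.191) and without ATRA replicate 1 (0.0614) or Control replicate 1 (0.0617). STT3B (log2FC -0.33) and RPN1 (log2FC -0.24) were called lower and turned to 0.15 and 0.24 with library size only. The count ratio of DDOST to RPN1, a pair chosen after the values were seen, was 0.7597 to 0.777 in the control libraries and 0.378 to 0.413 with ATRA. DAD1, a small subunit, was the member of this complex that rose (119.6, 125, and 110.5 normalized CPM against 154, 137, and 142, log2FC 0.29).

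At the entry to the ER, SEC61A1 and SEC61G of the translocation channel were higher and the other genes were divided. Of 13 tested genes 6 were higher and 5 lower (median log2FC 0.07), and 9 and 2 with library size only. SEC61A1, the channel itself, had 566, 520.4, and 538 normalized CPM in the control libraries and 778, 765, and 784 with ATRA (log2FC 0.52, standard error 0.0565, adjusted p = 1.24e-07). SEC61G, a small channel subunit, had 111, 133, and 108 and 181, 155, and 191 (log2FC 0.59), and SEC63, which recruits BiP to the channel, had 127, 140.2, and 137 and 193, 202, and 191 (log2FC 0.53). Each of these was higher in all 3 ATRA libraries. SEC61B (log2FC 0.07, adjusted p = 0.3999) and SEC62 (log2FC -0.03, adjusted p = 0.632) overlapped between the groups under TMM, with 0.54 and 0.45 with library size only.

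Under TMM, CKAP4 and most subunits of the translocon-associated protein complex were among the lower genes. CKAP4 (CLIMP-63), which spaces ER sheets, had 464, 451, and 451 normalized CPM in the control libraries and 133, 138, and 145 with ATRA, 3.28-fold lower (log2FC -1.71, standard error 0.0564, adjusted p = 2.52e-15). The translocon-associated subunits were chosen for mention after their values were seen. SSR2 fell under both scalings (log2FC -0.81, -0.33 with library size only). SSR1 was called lower with -0.53 but had -0.05 with library size only, where it missed the threshold (adjusted p = 0.403). SSR3 was called lower with -0.35 but turned to 0.13 with library size only, and SSR4 rose (0.47). The 4 subunits of a single complex thus did not move as a unit.

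The stress sensors themselves were higher, with EIF2AK3 well ahead. The role of sensors and their signalling held 19 tested genes, 10 higher and 7 lower, with a median log2FC of 0.21. EIF2AK3 encodes PERK, the kinase that slows translation by phosphorylating eIF2-alpha. It had 55.4, 58.02, and 57.2 normalized CPM in the control libraries and 220.3, 247, and 230.3 in the ATRA libraries, 4.09-fold higher (log2FC 2.03, standard error 0.0608, adjusted p = 6.24e-16). ERN1, which encodes IRE1-alpha, the kinase and endoribonuclease that splices XBP1, had 25.4, 26.9, and 26.99 and 43.5, 50.6, and 46.8 (log2FC 0.83, standard error 0.0755, adjusted p = 1.05e-08). ATF6, the membrane-bound transcription factor, had 70.8, 67.02, and 72.7 and 107, 134, and 115 (log2FC 0.76, standard error 0.0751, adjusted p = 3.18e-08). All 3 sensors were higher in every ATRA library under each scaling, and the count ratio of EIF2AK3 to ERN1 went from 2.12 to 2.18 to 4.87 to 5.07. ATF6B, the paralogue of ATF6, moved less (33.99, 32.8, and 32.6 against 40.5, 39.7, and 38.5, log2FC 0.26). WFS1 (wolframin) had a log2FC of 0.21 (adjusted p = 0.0132), a call lost by the t.test function (0.0880) and without Control replicate 2 (0.08103) or Control replicate 3 (0.0537).

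Partners of the sensors moved in both directions. XBP1, the transcription factor made after IRE1 splicing, had 211, 217, and 202 normalized CPM in the control libraries and 169, 166, and 172 with ATRA, lower in every ATRA library under TMM (log2FC -0.31, adjusted p = 4.06e-05) but 0.17 with library size only. Gene counts do not separate its spliced and unspliced forms. EIF2S1, the eIF2-alpha subunit, had a log2FC of -0.09 (adjusted p = 0.149) and 0.39 with library size only. Of the Golgi proteases that release ATF6, MBTPS1 had a log2FC of -0.40, or 0.08 with library size only, and MBTPS2 rose by 0.24. Phosphorylation, splicing, and cleavage, the steps by which these proteins act, are not measured by counts.

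The largest falls of this role were in kinases and proteases that act outside the ER. CAPN2, the large subunit of a calcium-activated protease, had 591, 584, and 597 normalized CPM in the control libraries and 135, 138, and 141 with ATRA, 4.28-fold lower (log2FC -2.10, standard error 0.0556, adjusted p = 9.55e-17), the largest fall among the 146 members. CAPN1, its paralogue, had 271, 247, and 260.3 and 103, 96.4, and 102 (log2FC -1.37). EIF2AK2, the eIF2-alpha kinase that senses double-stranded RNA, had 47.0, 54.4, and 55.7 and 13.1, 20.1, and 16.6 (log2FC -1.66). The eIF2-alpha kinases therefore parted, with EIF2AK3 higher and EIF2AK2 lower in every library. Of the other two, which were chosen after their values were seen, EIF2AK1 rose by 0.53 and EIF2AK4 had a log2FC of -0.09 (adjusted p = 0.219, 0.39 with library size only). MAP3K5 (ASK1), the kinase above JNK, fell from 13.1 ± 1.68 to 4.19 ± 1.01 normalized CPM (SD with n = 3 each, log2FC -1.64). TRAF2, the adaptor between IRE1 and ASK1, and MAPK8 (JNK1) rose by 0.90 and 0.83, while MAPK9 (JNK2) fell by 0.74 on the log2 scale, all 3 chosen after their values were seen.

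The ERAD membrane machinery was almost wholly higher. Of 17 tested genes 15 were higher and 1 lower (median log2FC 0.52). All 15 were called higher under each of the 4 scalings (88.2%, against 40.0% of all tested genes). HERPUD1, which assembles the ubiquitin ligase complex at the ER membrane and is a target of the unfolded protein response, had 148, 149, and 138 normalized CPM in the control libraries and 301, 294, and 298 with ATRA (log2FC 1.04, standard error 0.0549, adjusted p = 3.44e-12). SYVN1, the ubiquitin ligase HRD1, had 58.1, 44.4, and 53.3 and 112, 116, and 111 (log2FC 1.13, standard error 0.0788, adjusted p = 2.51e-10). Both were higher in every ATRA library. SEL1L, the partner that stabilizes HRD1, had 152, 164, and 182 and 133, 177, and 162, with overlapping libraries (log2FC -0.08, adjusted p = 0.441, 0.40 with library size only). The count ratio of SYVN1 to SEL1L went from 0.271 to 0.384 to 0.656 to 0.845.

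The rest of the machinery was also mostly higher. The derlins, which form part of the retrotranslocation channel, rose by 0.21 for DERL1 and 0.53 for DERL2 on the log2 scale. Further ligases and adaptors, named after their values were seen, also rose, among them RNF5 (log2FC 0.84), MARCH6 (0.71), and VIMP, the selenoprotein SELENOS (0.80). SVIP, a small inhibitor of ERAD that binds p97, was barely read in control cells, with 1, 0, and 2 counts, and had 117, 134, and 78 counts in the ATRA libraries. Against a floor of 3 counts per library it was at least 27.0-fold higher, and with SVIP set at this bound the median of the role was unchanged. UBE2J1, a ubiquitin-conjugating enzyme anchored in the ER membrane, was called lower (log2FC -0.43) and turned to 0.05 with library size only, while its paralogue UBE2J2 rose by 0.52.

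The factors that extract ERAD substrates and bring them to the proteasome were mostly higher. Of 13 tested genes 9 were higher and 1 lower (median log2FC 0.32), and 8 were called higher under every scaling. VCP (p97), the ATPase that pulls substrates out of the membrane, had 539, 531, and 529 normalized CPM in the control libraries and 506, 509.6, and 539 with ATRA, with overlapping libraries (log2FC -0.04, adjusted p = 0.501, 0.44 with library size only). YOD1, a deubiquitinase that works with p97, had 14.1, 15.4, and 13.6 and 24.5, 28.2, and 19.4 (log2FC 0.74, standard error 0.114, adjusted p = 1.17e-05), a call that the t.test function named in the study's methods did not make (adjusted p = 0.0515). NPLOC4, a ubiquitin-binding cofactor of p97, chosen after its values were seen, rose by 0.40. RAD23B, a shuttle factor that carries ubiquitinated proteins to the proteasome, was the member that fell, with 333, 346, and 340.0 and 192, 205, and 204 (log2FC -0.76, standard error 0.0542, adjusted p = 2.88e-10).

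The cytosolic chaperones and ubiquitin ligases left in the set were divided. Of 25 tested genes 10 were higher and 7 lower (median log2FC 0.03), and 20 and 2 with library size only. CRYAB, the small heat shock protein alpha-B-crystallin, had 142, 132, and 130.4 normalized CPM in the control libraries and 414, 335, and 392 with ATRA, 2.82-fold higher (log2FC 1.50, standard error 0.0717, adjusted p = 8.22e-13). HSPA6, a stress-inducible HSP70, had 8, 9, and 2 counts in the control libraries and 1498, 1545, and 1443 in the ATRA libraries. This was the largest rise among the 146 members (log2FC 7.43, standard error 0.179, adjusted p = 2.25e-17). The size of this rise is imprecise with so few control counts, although no library overlapped. HSPA6 had enough reads to be tested only through its ATRA libraries, so its p-value is no separate evidence of direction. HSPA4L, an HSP110-like protein, rose from 1.01 ± 0.396 to 2.66 ± 0.373 normalized CPM (SD with n = 3 each, log2FC 1.38). In each of these the ATRA libraries were above all control libraries. HSPA1A is not a member, and the rows deposited as HSPA1B, chosen after their values were seen, did not share the rise. HSP70.1 had 114, 115, and 115 and 114, 111, and 126 (log2FC 0.03, adjusted p = 0.618), and LOC102178315 was called lower with -0.27 but had 0.21 with library size only. The reads of these near-identical HSP70 genes may be divided or discarded among copies, so their values are uncertain. BAG2, a nucleotide exchange factor of HSP70 that inhibits the ligase STUB1, had 50.8, 57.7, and 52.8 and 31.7, 30.8, and 28.1 and fell (log2FC -0.83, standard error 0.0746, adjusted p = 8.39e-09). DNAJB2, a neuronal J protein that sorts ubiquitinated clients, rose by 1.20 and was also chosen after its values were seen.

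At the exit from the ER, most COPII genes were slightly higher and a few lower. Of 15 tested genes 11 were higher and 4 lower (median log2FC 0.29). SAR1A, the GTPase that starts coat assembly, had 656, 708, and 639.9 normalized CPM in the control libraries and 306, 308, and 318 with ATRA (log2FC -1.10, standard error 0.0586, adjusted p = 3.54e-12). SAR1B, the paralogue needed for large cargo, had 31.1, 29.9, and 29.8 and 46.9, 56.7, and 46.5 (log2FC 0.73, standard error 0.0811, adjusted p = 1.76e-07). The pair moved in opposite directions in every library and under each scaling. SEC31B, an outer coat subunit, had 19.9, 16.97, and 20.9 and 40.4, 38.7, and 40.02 (log2FC 1.04, standard error 0.0826, adjusted p = 1.36e-09).

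Within the coat, the cargo-binding SEC24 subunits parted. SEC24A, SEC24B, and SEC24C rose by 0.55, 0.28, and 0.33 on the log2 scale, although the t.test function did not call SEC24B (adjusted p = 0.0678). SEC24D, which is needed for procollagen export, had 334, 306, and 346 normalized CPM in the control libraries and 201, 233, and 211 with ATRA (log2FC -0.61, adjusted p = 8.11e-08), but -0.13 with library size only, where it missed the threshold (adjusted p = 0.0729). Of the inner coat, SEC23A was called lower with -0.25, turning to 0.23 with library size only and not called by the t.test function (adjusted p = 0.149), and SEC23B rose by 0.29. LMAN1, the lectin that carries coagulation factors and other glycoproteins, rose from 207 ± 5.604 to 252 ± 4.16 normalized CPM (SD with n = 3 each, log2FC 0.29).

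The count ratio of related members within each library was compared for 24 pairs, a list written after the values had been seen. In 20 pairs (83.3%) the ratios of the groups did not overlap, a share close to that of the levels of all tested genes (80.1%). The members were called in opposite directions in 8 pairs under TMM and in 4 with library size only, and in the same opposite directions under both in 2, SAR1A with SAR1B and MAPK8 with MAPK9. With 40.9% of all genes called higher and 38.7% lower, nothing particular to these pairs is read from the counts. The ratio of SAR1A to SAR1B was 21.1 to 23.7 in the control libraries and 5.43 to 6.85 in the ATRA libraries, 3.54-fold lower. MAPK8 to MAPK9 went from 0.706 to 0.855 to 2.27 to 2.44, so the more abundant of the JNK counts changed from MAPK9 to MAPK8. ERO1A to ERO1B rose 2.33-fold and SEC24D to SEC24C fell to a value 1.93-fold lower. The ratios of STT3A to STT3B, EDEM1 to EDEM2, EDEM1 to EDEM3, and UBE2G1 to UBE2G2 overlapped between the groups.

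**Figure D4:**
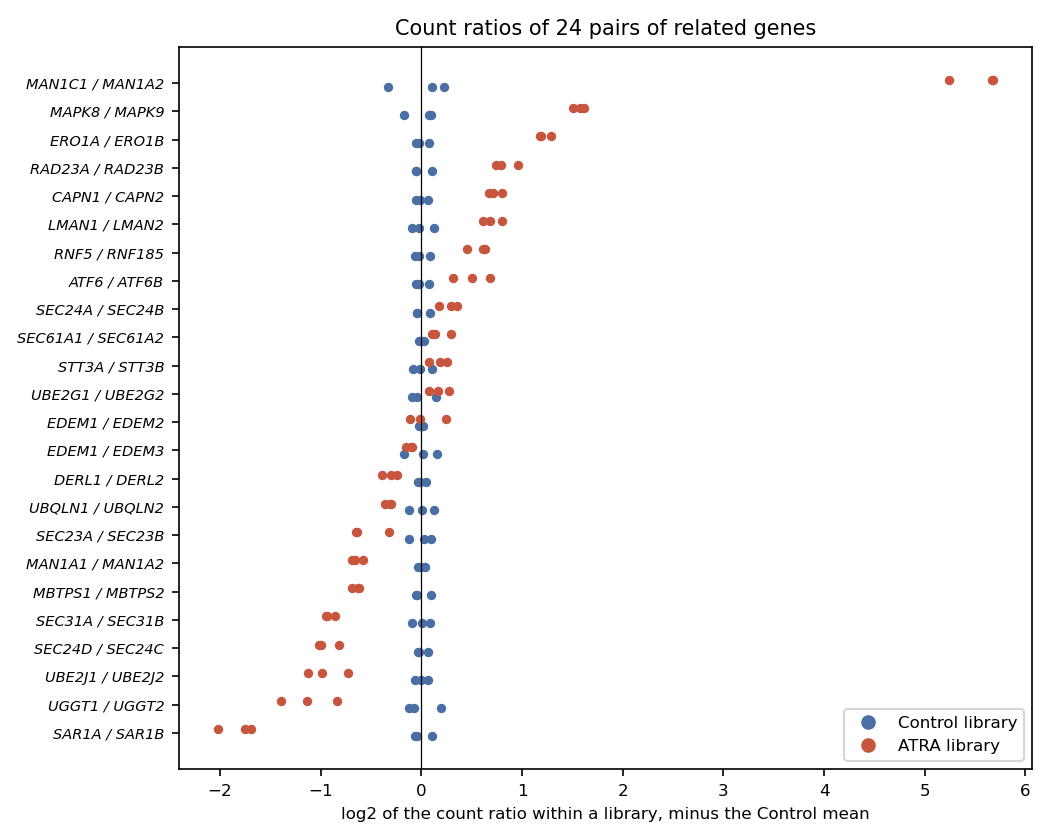
Each row is a pair of related members, and each point is the log2 count ratio of the pair in a library minus the mean of the control libraries, with control libraries in blue and ATRA libraries in red. SAR1A / SAR1B lies farthest to the left, 3.54-fold lower with ATRA, and MAN1C1 / MAN1A2 farthest to the right, with 5, 6, and 4 counts of MAN1C1 in the control libraries.

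The GO annotation of the deposited table gives another cut through the same genes, by compartment. Of 21 tested members annotated to the ER lumen, 3 were higher and 15 lower (median log2FC -0.38), and of 52 annotated to the ER membrane, 36 were higher and 13 lower (median 0.35), with 4 genes in both. With library size only the lumenal genes were divided 9 higher and 5 lower and the membrane genes 43 higher and 3 lower. Called in the same direction under all 4 scalings were 3 higher and 5 lower lumenal genes and 35 higher and 3 lower membrane genes. The difference between the compartments was not tested.

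The 10 members with the most counts in the control group went from 0.938% ± 0.0169 to 1.64% ± 0.04299 of all counts (SD, n = 3 each, exact permutation test, p = 0.1), of which HSPA5 held 0.183% and 1.02%. Of them, HSPA5 and SEC61A1 were higher and CALR, HSP90B1, P4HB, PDIA3, SAR1A, PDIA6, RRBP1, and CAPN2 lower under TMM, although HSP90B1 and RRBP1 turned to 0.07 and 0.10 with library size only. Counts depend on transcript length as well as on level, and no lengths were used, so this order is one of counts.

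Other ER genes that the pathway annotation does not hold were taken from 4 written lists, of which 97 of 102 genes were tested. In all, 39 were higher and 33 lower (median log2FC 0.02), and 75 and 13 with library size only. Other folding factors were mostly lower (6 higher and 15 lower of 26, or 17 and 7 with library size only). FKBP9, a prolyl isomerase of the lumen, fell from 1213 ± 27.6 to 292 ± 9.101 normalized CPM (SD with n = 3 each, log2FC -2.06), and SERPINH1 (HSP47), the collagen-specific chaperone, from 1431 ± 38.2 to 416 ± 25.1 (log2FC -1.78). In the same libraries the collagen genes COL1A1, COL1A2, and COL3A1 had log2FC of -5.62, -3.87, and -4.77, and whether both shifts are linked was not tested. QSOX1, a sulfhydryl oxidase, and FKBP2, a prolyl isomerase, rose by 0.86 and 0.69.

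Genes of the signal recognition particle, signal peptidase, and membrane insertion were 12 higher and 5 lower of 27. With library size only that split was 23 and 1. SERP1, which associates with the translocon under stress, rose from 149 ± 10.6 to 346 ± 10.7 normalized CPM (SD with n = 3 each, log2FC 1.21), and EMC3, a subunit of the ER membrane insertase, rose by 1.17. TRAM2, a translocon protein linked to collagen synthesis, fell by 0.88 on the log2 scale, while WRB, the receptor for tail-anchored proteins, had -0.56 under TMM and missed the threshold with library size only (-0.08, adjusted p = 0.331). Genes of ER exit and retrieval were 13 higher and 10 lower of 31, or 24 and 4 with library size only. MIA3 (TANGO1), which loads procollagen into carriers, rose from 181 ± 5.11 to 347 ± 13.5 (SD with n = 3 each, log2FC 0.94) and BET1, a SNARE of ER to Golgi transport, by 0.93. CREB3L1, an ER-bound transcription factor of secretory genes, fell from 559.9 ± 62.99 to 118 ± 5.84 (log2FC -2.25), and ERGIC1 by 1.03 on the log2 scale.

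Genes of ER-phagy and of UFM1 conjugation were 8 higher and 3 lower of 13, or 11 and 1 with library size only. CALCOCO1, a receptor for the autophagy of ER tubules, rose from 44.4 ± 3.15 to 186 ± 4.59 normalized CPM (SD with n = 3 each, log2FC 2.07, standard error 0.0637, adjusted p = 9.35e-16), with every ATRA library above every control library. DDRGK1, which anchors the UFM1 ligase to the ER, rose by 0.70. ATL3, an atlastin that is also a receptor for tubules, fell by 0.89 on the log2 scale.

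Of 6 stress genes written as markers, 5 were tested. ATF3, BBC3, and TRIB3, induced under stress, rose with log2FC of 2.37, 1.58, and 1.81. CHAC1, another such gene, had -0.02 (adjusted p = 0.753, 0.46 with library size only), and ASNS, asparagine synthetase, fell by 0.97 on the log2 scale. The 5 genes were thus 3 higher, 1 lower, and 1 not called.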

How the data were processed

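RNA-seq was analysed for SHF-DPCs cultured for 24 h without ATRA (3 libraries) or with it (3 libraries). The authors deposited raw counts of reads per gene with GO and KEGG annotation. Per the methods, fastp and TrimGalore removed poor bases and adapters. The submitters' processing notes name HISAT2, featureCounts, and DESeq2 without role or version. The genome build, annotation, strand setting, and treatment of multimapping reads are not given in the sources used here. Reads shared by near-identical genes and by a gene and its antisense partner cannot be told apart. Every per-sample column was used.

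The members, lists, and named genes were chosen with earlier results of these data known. Genes kept by filterByExpr (12588) were scaled by TMM. Both groups were compared by the quasi-likelihood test of edgeR (robust, two-sided) over all 6 libraries with no covariate. P-values were adjusted by Benjamini-Hochberg over all tested genes. The prior count of the log2FC was 0.125. Standard errors are the absolute log2FC over the square root of F. The floor was 3 counts per library, applied where no library of a group exceeded it. Floors and errors cover counting and these libraries only. Symbols are those of the table, all found in the RefSeq gene table. No coordinates were used.

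Genes named in the text were a set of canonical genes, the largest called rise and fall of each role with a mean CPM of at least 1 and no overlap between groups, the 10 largest rises and falls of the members, and the 2 largest rises and falls of each list outside the pathway. Others, and the paralogue and partner ratios, were chosen after the values were seen. TRAM1L1 was given its role after the table was seen. A few genes that this rule takes are not reported here.

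As alternatives, DESeq2 and the t.test function of R, which the methods name, were run, the latter on log2(CPM + 1). TMM was replaced by RLE, by upper quartile, and by no factor beyond library size. The filter was dropped or set to a CPM of at least 1 in 3 libraries. The replicate number was added as a block, and single libraries were left out. Of the tests, only that of edgeR was tried on simulated counts, in which 200 genes were changed by a log2FC of 1 in either direction. All 200 were recovered, and 12 unchanged genes were called. The simulation held no shift as broad as the one here, so it cannot judge the choice of scaling. Versions were edgeR 4.0.16, DESeq2 1.42.0, limma 3.58.1, R 4.3.3, matplotlib 3.10.9, and Python 3.11.15.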

Additional observations from a re-analysis of the deposited data

How the results depend on the processing

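When TMM gave way to library size only, the members called lower were 23 and not 55, those past the study's threshold were 36 higher and 5 lower, and the median log2FC was 0.62. Of the 55, 13 were then called higher, and none of the 71 higher members was called lower. The same scaling turned the sign of HSP90B1 (0.0704), DNAJB11 (0.47), DNAJC10 (0.15), SIL1 (0.0811), CANX (0.29), UGGT2 (0.48), TXNDC5 (0.0943), XBP1 (0.17), MBTPS1 (0.0769), EIF2S1 (0.39), SEL1L (0.40), EDEM1 (0.16), EDEM2 (0.12), EDEM3 (0.28), VCP (0.44), SEC62 (0.45), STT3A (0.32), STT3B (0.15), RPN1 (0.24), SEC23A (0.23), and UBE2J1 (0.0466). Upper-quartile scaling turned DNAJB11 (0.066), UGGT2 (0.076), SEL1L (0.0009), VCP (0.036), and SEC62 (0.0447), and a CPM of at least 1 turned DNAJB11 (0.0021) and UGGT2 (0.013). The median of the members was 0.12 with DESeq2 and with RLE and 0.22 with upper quartile, and 0.0988 to 0.1502 with each library left out. Leaving out libraries gave 66 to 70 members higher and 53 to 58 lower. Over these fits the log2FC ranged across 0 from -0.0279 to 0.0308 for UGGT2, from -0.176 to 0.0264 for SEL1L, and from -0.0917 to 0.0072 for SEC62, lowest each time without ATRA replicate 2. The samples were not treated as paired, since deviations of same-numbered libraries correlated at 0.215, -0.0161, and -0.181 and those of other-numbered libraries at -0.264 to 0.280. Whether cultures share an animal is not given. With the replicate block, 71 members were higher and 55 lower, and UGGT2 was 0.0002. It was 0.0002 also by the t.test function, which called 63 higher and 53 lower. Of 88 named genes, 88 kept direction and call under DESeq2, RLE, and no filter alike. For the other shifts the cause was not tested. The 6 members with few reads were not tested at this depth.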
